A study of Mus musculus with 4 samples.

Results

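The genes of glycolysis and the genes induced by low oxygen were examined on 4 Affymetrix expression arrays of mouse cells. The sample titles name these as endothelial cells made from induced pluripotent stem cells (iPSCs). Of the 40 genes listed, 37 had at least 1 probe set that names the gene alone, 83 probe sets of 45101 in all, and 36 were among the 18193 genes tested. The tested groups of genes were 13 of 16 glycolytic enzymes, 7 of 7 transporters and regulators of sugar and lactate, 14 of 15 hypoxia targets outside glycolysis and both hypoxia-inducible factors. The expression of Gpi1 and Eno1 was not analysed here, Bnip3l had only probe sets shared with another gene and is not named from them, and Gapdh had only manufacturer control probe sets, which were left out of the fit. The cells came from 2 mice with diet-induced obesity (DIO) and 2 healthy control mice, all aged 24 weeks per the labels, with 1 array per mouse. All 4 cultures were kept in medium for endothelial cells and lifted with trypsin ahead of RNA isolation, and no label names a strain, a sex, a diet composition or a cell sort. The cell type entry, unlike the titles, gives iPSC and not endothelial cells. The arrays are called DIO 1, DIO 2, control 1 and control 2 after the mouse named in the titles, and the labels speak of biological duplicates. Nothing says how many iPSC lines a mouse gave, so the p-values cover only the spread of these 4 samples, some of it possibly technical.

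Glycolysis splits glucose into pyruvate in the cytosol and yields ATP without oxygen, and endothelial cells and pluripotent cells are both known to lean on it. When oxygen is scarce, prolyl hydroxylases of the EGLN family no longer mark the hypoxia-inducible factor subunits HIF-1alpha and HIF-2alpha (genes Hif1a and Epas1) for destruction, and these factors bind a short DNA element to raise both glycolytic genes and a wider set that acts on mitochondria, acid balance, collagen and growth. The regulation of the factors is largely at the level of the protein, which the arrays do not measure.

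The element bound by the factors contains ACGTG or GCGTG, so both strings were searched on both strands of the 300 bases from 250 before to 50 after each transcription start in the RefSeq table of the GRCm38.p6 build. The table held 52 promoters of 36 of the 40 listed genes, Gpi1 and Eno1 included, with no entry for Ndrg1, Slc2a3, Epas1 or Bnip3l. A match was present in 41 of the 52 (78.8%), against 43.8% of all 32851 promoters in the table. Those 32851 promoters belong to 27025 genes. Promoters of 1 gene can overlap and count the same match again, so the 52 are not independent. The share was 76.5% for the hypoxia targets outside glycolysis (13 of 17), 76.9% for the glycolytic enzymes (20 of 26) and 87.5% for the transporters and regulators (7 of 8). Member promoters also had a median of 62.7% G and C and 20.5 CpG dinucleotides, against 52.7% and 7.0 for all promoters, and both strings contain a CpG. The string ACGTG overlaps the element CACGTG of other helix-loop-helix factors, which was present in 11.5% of member promoters and 7.15% of all. These are matches of letters and not shown binding sites.

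The promoters of 6 genes are shown, picked by their array results below and not by rank. These are P4ha1, P4ha2, Pfkfb4 and Car12, whose DIO means were among the lowest relative to the controls, and Ldha and Pgk1, textbook glycolytic targets whose DIO and control means were close. Mxi1, Aldoc and Egln3, whose differences were lower than that of P4ha1, are not shown. Each is written 5′ to 3′ on the gene's strand in build GRCm38.p6, and capitals mark every ACGTG or GCGTG on either strand.
P4ha1, chr10:59323046-59323345, plus strand: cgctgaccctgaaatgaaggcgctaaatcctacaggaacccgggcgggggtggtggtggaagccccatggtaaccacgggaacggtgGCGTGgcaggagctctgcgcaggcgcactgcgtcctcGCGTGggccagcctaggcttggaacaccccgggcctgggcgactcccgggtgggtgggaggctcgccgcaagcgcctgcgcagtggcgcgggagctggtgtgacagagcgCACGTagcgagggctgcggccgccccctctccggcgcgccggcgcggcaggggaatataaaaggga
P4ha2, chr11:54100674-54100973, plus strand: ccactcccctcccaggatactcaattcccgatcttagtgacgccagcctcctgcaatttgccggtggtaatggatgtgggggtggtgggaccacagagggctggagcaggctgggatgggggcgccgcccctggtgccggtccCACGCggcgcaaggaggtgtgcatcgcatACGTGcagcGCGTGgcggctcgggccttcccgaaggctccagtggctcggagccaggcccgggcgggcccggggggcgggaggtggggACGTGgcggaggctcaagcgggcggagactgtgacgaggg
Pfkfb4, chr9:108991652-108991951, plus strand: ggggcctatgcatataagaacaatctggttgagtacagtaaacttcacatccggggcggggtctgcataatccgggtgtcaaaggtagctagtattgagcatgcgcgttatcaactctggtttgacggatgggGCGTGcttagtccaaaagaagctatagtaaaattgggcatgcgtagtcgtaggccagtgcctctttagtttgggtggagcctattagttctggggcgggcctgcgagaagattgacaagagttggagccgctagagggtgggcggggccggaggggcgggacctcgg
Car12, chr9:66713436-66713735, plus strand: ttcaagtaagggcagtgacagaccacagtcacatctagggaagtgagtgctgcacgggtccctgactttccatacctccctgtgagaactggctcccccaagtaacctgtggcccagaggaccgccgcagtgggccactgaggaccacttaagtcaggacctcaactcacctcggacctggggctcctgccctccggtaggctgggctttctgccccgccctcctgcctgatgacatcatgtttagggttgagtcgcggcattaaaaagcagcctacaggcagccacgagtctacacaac
Ldha, chr7:46845554-46845853, plus strand: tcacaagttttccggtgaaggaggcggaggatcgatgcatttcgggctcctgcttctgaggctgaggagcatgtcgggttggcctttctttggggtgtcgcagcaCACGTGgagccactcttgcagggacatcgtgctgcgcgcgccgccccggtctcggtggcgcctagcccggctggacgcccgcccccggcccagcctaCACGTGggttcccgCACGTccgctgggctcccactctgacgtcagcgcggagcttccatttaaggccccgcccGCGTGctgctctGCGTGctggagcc
Pgk1, chrX:106186850-106187149, plus strand: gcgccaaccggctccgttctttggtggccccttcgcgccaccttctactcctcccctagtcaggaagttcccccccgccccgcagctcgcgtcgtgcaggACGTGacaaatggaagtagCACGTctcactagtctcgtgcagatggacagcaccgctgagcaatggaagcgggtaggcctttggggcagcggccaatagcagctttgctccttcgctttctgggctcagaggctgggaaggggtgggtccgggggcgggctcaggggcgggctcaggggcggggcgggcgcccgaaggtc
P4ha1 held 3 matches, P4ha2 4, Pfkfb4 1, Car12 0, Ldha 7 in the promoter shown and Pgk1 2. A CACGTG reads as ACGTG on either strand and counts as 2 matches.

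Marker genes of several cell types were read on the same arrays. The 18 endothelial markers averaged 5.97 and 5.86 in DIO 1 and 2, against 6.01 and 6.24 in control 1 and 2, and Tie1, Emcn and Fli1 lay between 3.44 and 3.88 on every array, while Cdh5 and Esam lay between 8.37 and 9.34; without detection calls it cannot be said which were absent. The 12 pluripotency markers averaged 10.46 and 9.33 in DIO, against 9.95 and 9.22 in control, and were highest in DIO 1 for 11 of 12. The 13 measured epidermal markers averaged 8.22 and 9.54 in DIO, against 6.75 and 12.17 in control, and all 13 were highest in control 2. The mean of the control probe sets for 18S ribosomal RNA was 12.30 and 11.96 in DIO, against 12.60 and 12.65 in control. The 10 simple epithelial markers averaged 11.98 and 11.95 in DIO, against 11.93 and 12.08 in control. The 8 visceral endoderm and liver markers averaged 6.13 and 6.52 in DIO, against 5.36 and 7.71 in control. In such mixed RNA, fewer cells of a type and less RNA per cell cannot be told apart, and the part of these differences in the results below was not tested.

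No member passed the test between DIO and control: 0 of 36 reached an adjusted p of 0.05 in limma, as did 0.0% of all genes, and 3 of 36 (Aldoc, Pfkfb4 and P4ha2) had an unadjusted p below 0.05, against 6.58% of all genes. Both DIO arrays lay below both controls for 9 members, against 17.0% of all genes, and above both for 3, against 21.4%, together 12 members against 38.4%. The lower 9 were the enzymes Aldoc and Eno2, the regulator Pfkfb4, the lactate carrier Slc16a1, the hypoxia targets Egln3, P4ha1, P4ha2 and Mxi1, and Epas1. The higher 3 were Pdk1, Egln1 and Higd1a. These counts depended on the scale of the arrays: after centring each array on the median of its genes, 4 members lay below both controls and 4 above, and over all genes 1800 lay below and 6106 above, against 3090 and 3898 as deposited. With 2 arrays per group, 0.333 is the smallest p that an exact permutation test can return. The half-width of the 95% confidence interval had a median of 0.68 over the members, and for 15 of 36 the interval passed 1 on the log2 scale in at least 1 direction. All levels below are log2 values of 1 probe set, and differences are DIO mean minus control mean.

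**Figure D1:**
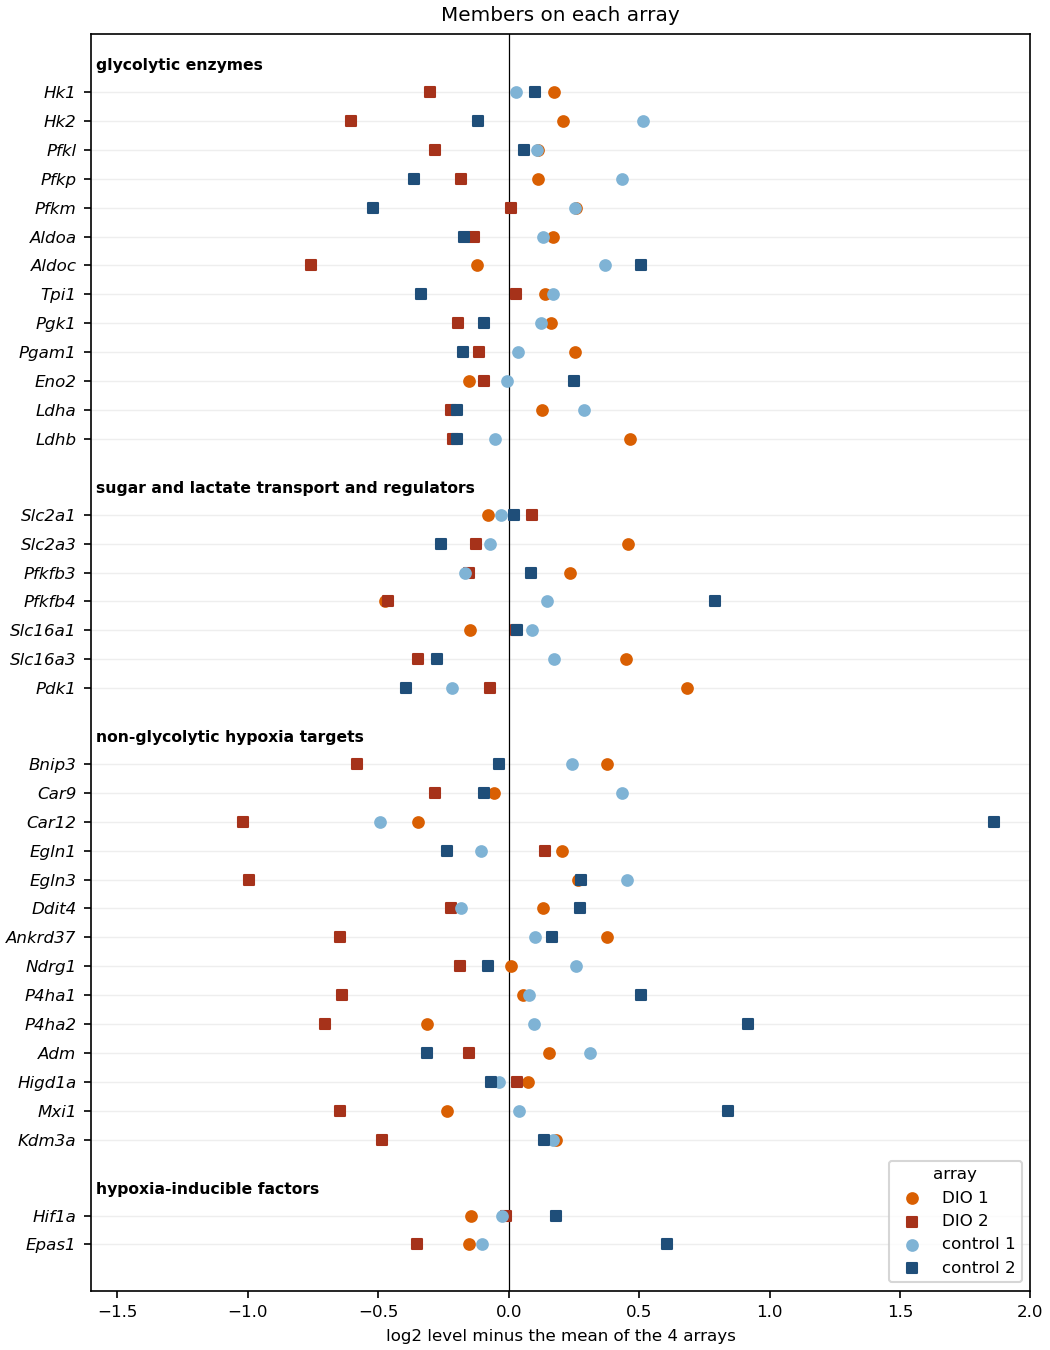
Log2 level of each of the 36 tested members on each array, as the distance from that gene's mean over the 4 arrays, with DIO arrays in orange and red and control arrays in blue. The red DIO 2 squares lie leftmost for 11 of the 14 hypoxia targets, and the dark blue control 2 squares lie far right for Car12, P4ha2, Mxi1 and Pfkfb4.

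No gene of glucose entry or of its first committed steps passed the test. Slc2a1 (GLUT1), the basal glucose transporter, was at 13.60 and 13.76 in DIO 1 and 2, against 13.65 and 13.70 in control 1 and 2. Its difference of 0.01 ± 0.13 (SE) had a 95% interval of −0.36 to 0.38, and the DIO arrays lay on either side of both controls. Slc2a3 (GLUT3), a high-affinity glucose transporter, differed by 0.33 ± 0.24. The hexokinases, which trap glucose by phosphorylation, differed by −0.13 ± 0.21 for Hk1 and −0.40 ± 0.38 for Hk2. Among the phosphofructokinase subunits, the liver form Pfkl differed by −0.17, the platelet form Pfkp by −0.07 and the muscle form Pfkm by 0.27, each with overlapping groups.

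Pfkfb3 and Pfkfb4 are bifunctional enzymes that set fructose 2,6-bisphosphate, the activator of phosphofructokinase. Pfkfb4 was at 6.77 and 6.78 in DIO, against 7.39 and 8.03 in control, and so was lower on both DIO arrays than on either control. Its difference was −0.94 ± 0.25, a 0.522-fold level in DIO (limma, adjusted p = 0.728). The gap between its 2 controls, 0.64, was itself wide beside the 0.01 between its DIO arrays, and control 2, its highest array, was also the highest for all 13 epidermal markers. Pfkfb3, the inducible form, differed by 0.08 ± 0.20, and the difference between the Pfkfb3 and Pfkfb4 values was not tested.

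Among the listed enzymes from aldolase to enolase, the isoforms Aldoc and Eno2 had non-overlapping groups, neither past the threshold. Aldoc, the brain-type aldolase, was at 8.71 and 8.07 in DIO, against 9.20 and 9.33 in control. The difference was −0.88 ± 0.26, with an interval of −1.57 to −0.18 (limma, adjusted p = 0.728). Aldoa, the widely expressed aldolase, differed by 0.04 ± 0.19, and the contrast between the isoforms was not tested. Eno2, the neuronal enolase, was at 4.76 and 4.82 in DIO, against 4.90 and 5.16 in control, a difference of −0.25 ± 0.15. It was a dim gene, with a mean level above that of only 28.4% of all genes, and no detection calls were available. Tpi1, the triose phosphate isomerase, differed by 0.17, Pgk1, the first ATP-forming kinase of the pathway, by −0.03, and Pgam1, the phosphoglycerate mutase, by 0.14. The 3 control probe sets for Gapdh, which oxidizes glyceraldehyde 3-phosphate, had DIO minus control differences of 0.05 at the 5′ end, 0.03 in the middle and 0.06 at the 3′ end, and were not tested.

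Handling of pyruvate and lactate showed 1 member with a higher DIO level on both arrays. Pdk1, a kinase that inactivates pyruvate dehydrogenase, was at 10.13 and 9.37 in DIO, against 9.23 and 9.05 in control. The difference was 0.61 ± 0.30 (limma, adjusted p = 0.736), mostly from DIO 1, where 11 of 12 pluripotency markers were also highest. The 3 other Pdk1 probe sets differed by 0.14, 0.14 and −0.01.

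Ldha, which makes lactate from pyruvate, was at 12.34 and 11.99 in DIO, against 12.51 and 12.02 in control, so the groups overlapped with a difference of −0.09 ± 0.24. Ldhb, the form that favours the reverse reaction, differed by 0.25 ± 0.27. The lactate carrier Slc16a1 (MCT1) was at 13.02 and 13.20 in DIO, against 13.26 and 13.20 in control, and only the third decimal separated DIO 2 from control 2. Slc16a3 (MCT4), the carrier linked to lactate export, differed by 0.10 ± 0.34.

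The hypoxia targets outside glycolysis had lower DIO means in 11 of 14 tested members, with a median difference of −0.29, against 46.7% of all genes with a lower DIO mean and a median of 0.02 over all genes. Both collagen prolyl 4-hydroxylase subunits were among the 4 members with both DIO arrays below both controls. P4ha2 was at 8.32 and 7.93 in DIO, against 8.73 and 9.55 in control, a difference of −1.02 ± 0.34 and a 0.495-fold level in DIO (limma, adjusted p = 0.728). P4ha1 was at 8.95 and 8.25 in DIO, against 8.97 and 9.40 in control, a difference of −0.59 ± 0.31, with DIO 1 only 0.03 below control 1. Mxi1, an antagonist of Myc, was at 8.60 and 8.19 in DIO, against 8.87 and 9.67 in control, a difference of −0.88 ± 0.33. In all 3 of these genes control 2 was the highest array, as it was for all 13 epidermal markers and for 6 of 12 mesenchymal and smooth muscle markers. The mesenchymal list averaged 6.53 and 6.71 in DIO, against 6.26 and 6.97 in control. Within it the collagen gene Col3a1 was at 7.35 and 8.46 in DIO, against 7.52 and 10.29 in control. Of the other collagen genes on the list, Col1a2 was also highest in control 2, but Col1a1 was highest in DIO 2. Control 2 was the lowest array for 4 of the 12 markers, among them Acta2 and Tagln. The part of these markers in the P4ha1 and P4ha2 values was not tested.

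Neither of the listed hydroxylases of the oxygen sensor passed the test, and the difference between them was not tested. Egln1 (PHD2), the main hydroxylase of the factors, was at 8.63 and 8.57 in DIO, against 8.33 and 8.19 in control, a difference of 0.34 ± 0.13 with an interval of −0.01 to 0.70. The other Egln1 probe set, at 8.44 and 8.13 in DIO, against 8.25 and 8.08 in control, had overlapping groups and differed by 0.12. Egln3 (PHD3), which is itself strongly hypoxia-induced, was at 8.80 and 7.53 in DIO, against 8.98 and 8.81 in control. Its difference of −0.73 ± 0.46 came mainly from DIO 2, which lay 1.26 below DIO 1.

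Bnip3 and Higd1a act at mitochondria, and neither passed the test. Bnip3, a receptor for the removal of mitochondria, was at 11.97 and 11.01 in DIO, against 11.83 and 11.55 in control, with the DIO arrays highest and lowest of the 4 and a difference of −0.20 ± 0.37. Higd1a, a small protein of the respiratory chain complexes, was at 11.02 and 10.98 in DIO, against 10.91 and 10.87 in control, a difference of 0.11 ± 0.12 with both DIO arrays above both controls.

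Of the carbonic anhydrases, which keep the acid balance at the cell surface, Car9 was at 5.14 and 4.92 in DIO, against 5.63 and 5.11 in control, a difference of −0.34 ± 0.23. Car12, singled out after its values were seen, was at 5.76 and 5.09 in DIO, against 5.61 and 7.96 in control, so that its difference of −1.37 ± 0.86 rested on control 2, and was −0.19 against control 1 alone. The other Car12 probe sets, at most 4.06 on any array, differed by 0.14 and 0.15.

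Adm, the vasodilator peptide adrenomedullin, was at 6.59 and 6.29 in DIO, against 6.75 and 6.12 in control, with both DIO arrays inside the range of the controls. The stress-induced inhibitor of mTORC1 Ddit4 differed by −0.09, the ankyrin repeat gene Ankrd37 by −0.27, Ndrg1, a stress- and differentiation-linked gene, by −0.18 and the histone demethylase Kdm3a by −0.30, all with overlapping groups.

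The factors had lower DIO means with control 2 as the highest array. Hif1a was at 11.49 and 11.63 in DIO, against 11.61 and 11.82 in control, a difference of −0.16 ± 0.15. Epas1, the gene of HIF-2alpha, was at 11.34 and 11.14 in DIO, against 11.39 and 12.10 in control, a difference of −0.50 ± 0.28 (limma, adjusted p = 0.761). DIO 1 lay 0.05 below control 1 for Epas1, and the 2 controls were 0.71 apart.

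**Figure D2:**
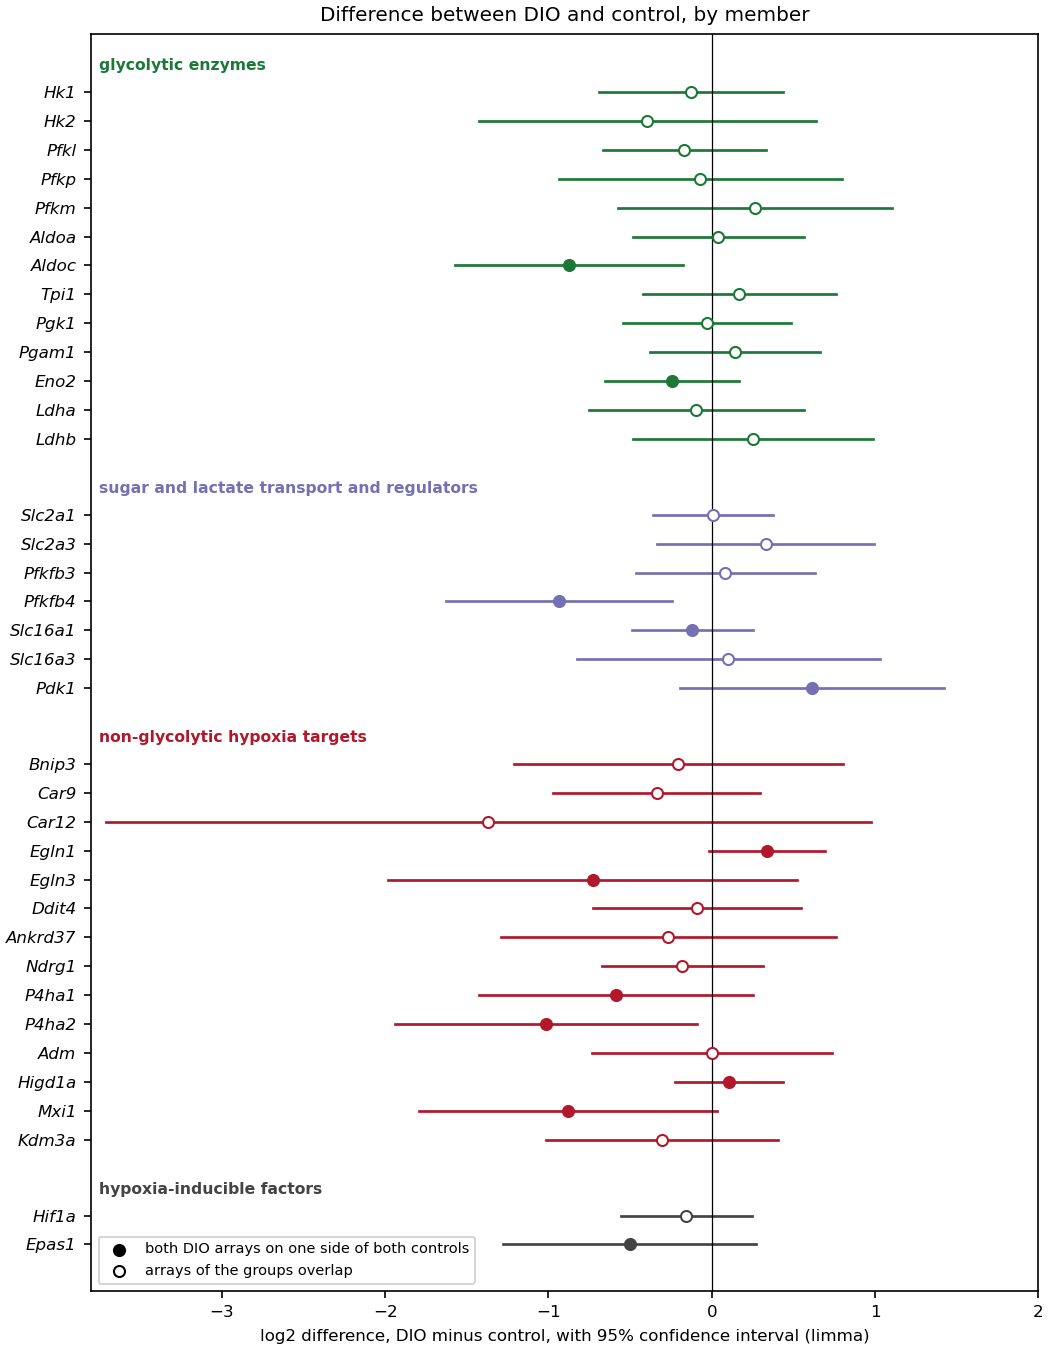
Log2 difference of each tested member, DIO mean minus control mean, with the 95% confidence interval from limma on 2 arrays per group. Filled points mark members with both DIO arrays on one side of both controls, and only the intervals of Aldoc, Pfkfb4 and P4ha2 lie clear of 0.

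Set against each other, the glycolytic enzymes had a median difference of −0.07 over 13 genes, with 8 lower in DIO and 5 higher, and the hypoxia targets outside glycolysis had −0.29 over 14 genes. The gap between the medians was −0.22. Leaving out 1 array at a time, it was −0.44 without DIO 1, −0.14 without DIO 2, −0.44 without control 1 and −0.21 without control 2. The transporters and regulators had a median of 0.08 over 7 genes, with 2 lower and 5 higher. Both DIO arrays lay below both controls for 2 of the 13 enzymes and 4 of the 14 targets, against 17.0% of all genes. They lay above both for 0 enzymes and 2 targets, against 21.4% of all genes. After quantile normalization 2 targets lay below and 2 above, and over all genes 2799 lay below and 4396 above. Of 30 enzyme probe sets taken singly, 3 lay below and 7 above.

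With each gene taken from its mean over the 4 arrays, the median of the hypoxia targets was 0.10 in DIO 1 and −0.53 in DIO 2, against 0.10 in control 1 and 0.15 in control 2. For the glycolytic enzymes these medians were 0.16 and −0.19 in DIO, against 0.13 and −0.17 in control. The hypoxia targets thus stood below the enzymes by 0.06 in DIO 1, 0.34 in DIO 2 and 0.03 in control 1, and above them by 0.32 in control 2. The enzymes were lower in DIO 2 than in DIO 1 for 12 of 13 genes, against 51.6% of all genes, and lower in control 2 than in control 1 for 10 of 13, against 62.1% of all genes. Control 2 was above control 1 for 6 of the 14 hypoxia targets, against 37.6% of all genes, and was the highest of the 4 arrays for 5 of them, against 20.9%.

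**Figure D3:**
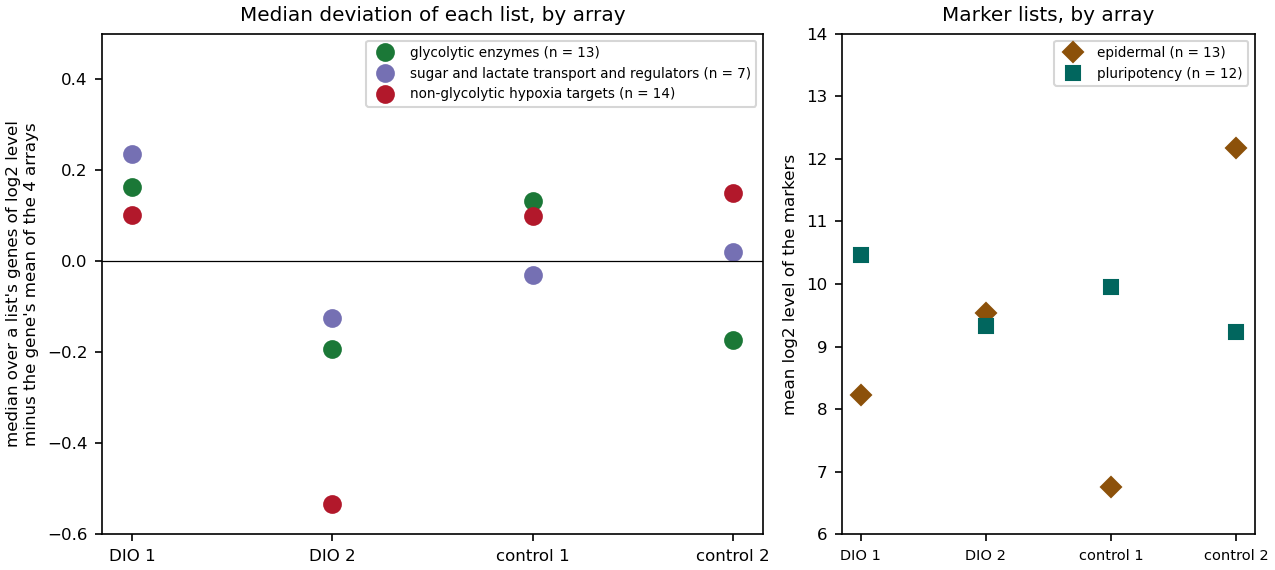
On the left, the median over each list's tested genes of the log2 level minus the gene's mean of the 4 arrays. On the right, the mean log2 level of the epidermal and pluripotency markers. The hypoxia targets lie at −0.53 in DIO 2, and the epidermal markers reach 12.17 in control 2.

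The DIO arrays themselves were far apart for these genes. DIO 2 was below DIO 1 in 14 of 14 hypoxia targets, by a median of −0.40, and in 31 of 36 members, by a median of −0.36, against 51.6% of all genes and a median of −0.01. DIO 2 was the lowest of the 4 arrays for 11 of 14 hypoxia targets, 7 of 13 enzymes and 20 of 36 members, against 22.0% of all genes. The widest such gaps were −1.26 for Egln3, −1.02 for Ankrd37 and −0.96 for Bnip3. The difference between the DIO arrays was larger than the difference between the group means for 23 of 36 members, against 46.1% of all genes. Pluripotency markers were also lower in DIO 2 than in DIO 1 for 11 of 12, by a median of −1.33, and the 18S level was lowest in DIO 2, at 11.96. The part of either in the gap between the DIO arrays was not tested.

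The 23 members with more than 1 probe set allow a check within each gene. In 14 of them all probe sets had differences of 1 sign, and in 9 the signs were mixed. All 5 probe sets of Ndrg1 were lower in DIO, from −0.68 to −0.04, as were all 4 of Hif1a, from −0.38 to −0.11. Both probe sets of Egln3, P4ha1, Mxi1 and Epas1 were lower, with the second at −0.41, −0.89, −0.67 and −0.79. The 4 probe sets of Ldhb were all higher, from 0.23 to 0.31, and the 3 of Tpi1 ran from 0.17 to 0.45. Aldoc depended on the probe set, since its dimmer one, near 4.3 on every array, differed by −0.02. For Adm the other probe set was at 6.43 and 6.48 in DIO, against 5.83 and 5.92 in control, a difference of 0.58 where the brighter one gave 0.00. The probe sets of a gene read different stretches of its transcripts, and no detection calls were available to weigh a dim one.

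**Figure D4:**
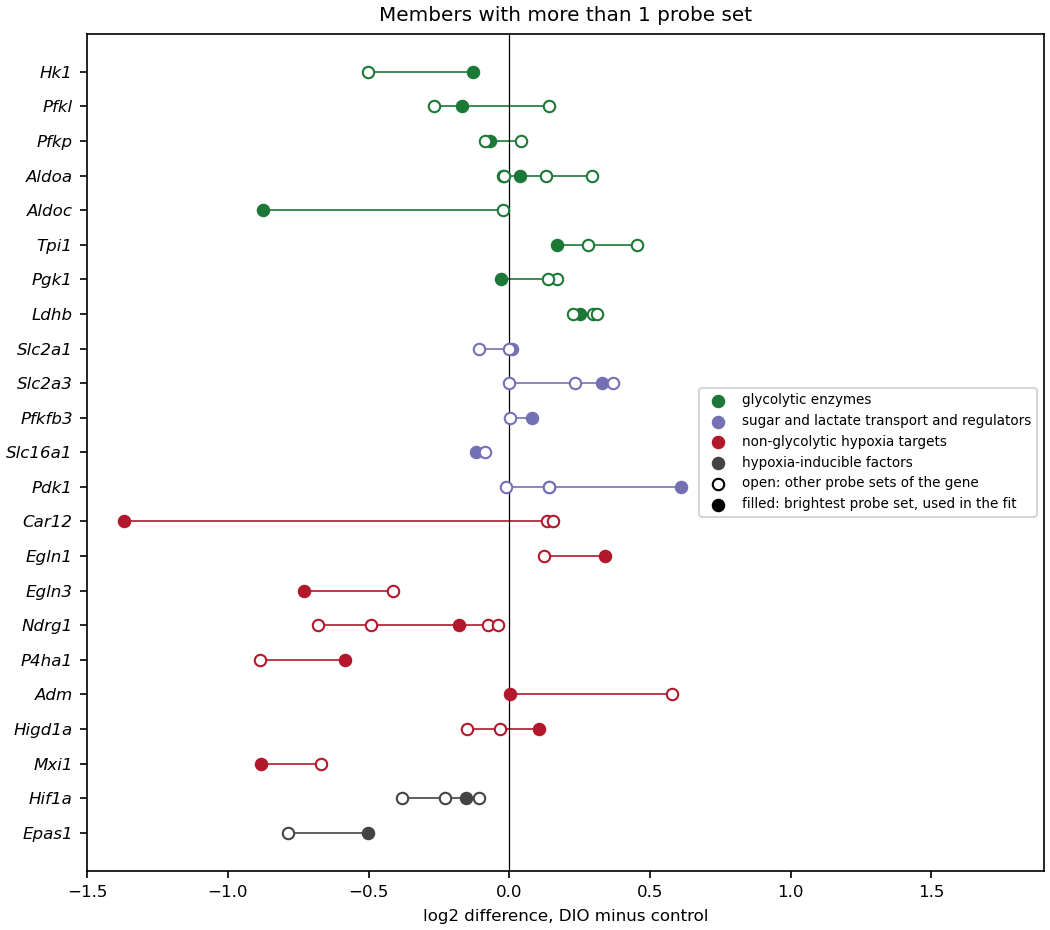
Log2 difference, DIO minus control, for each probe set of the 23 members with more than 1. Filled points are the brightest probe set, used in the fit. Egln3, P4ha1, Mxi1 and Epas1 keep all their probe sets left of 0, while Car12 and Aldoc have a wide spread between probe sets.

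Other genes of the same pathways, from lists that held no member, also gave 0 past the threshold in limma. Of 30 tested genes of glucose, pyruvate, pentose phosphate and glycogen metabolism, 16 had a lower DIO mean, with a median of −0.02; both DIO arrays lay below both controls for 5 and above both for 4. Of 37 further hypoxia genes, 27 had a lower DIO mean, against 46.7% of all genes, with a median of −0.15. That median was −0.058 after quantile normalization, −0.057 after centring on the median of genes, −0.071 with probe sets averaged, −0.037 without control 1 (21 of 37 lower) and −0.060 without DIO 2 (23 of 37 lower). As deposited, both DIO arrays lay below both controls for 12 and above both for 4, against 17.0% and 21.4% of all genes. At an unadjusted p below 0.05 there were 2 of 30 and 5 of 37, against 6.58% of all genes.

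By smallest p among those with non-overlapping groups, the further hypoxia genes were led by Rora, a nuclear receptor, at 7.38 and 7.30 in DIO, against 8.19 and 8.90 in control, a difference of −1.20 ± 0.28. Ero1a, the oxidase that forms disulfide bonds in the endoplasmic reticulum, was at 10.19 and 10.15 in DIO, against 10.60 and 10.61 in control, a difference of −0.43 ± 0.12. The Ero1a arrays lay 0.04 apart in DIO and 0.02 apart in control. Nfil3, a leucine zipper repressor, differed by −0.73 ± 0.21 and the lamin-binding protein gene Narf by −0.62 ± 0.20. Among the carbohydrate genes, Pygl, the liver-type glycogen phosphorylase, was at 9.23 and 9.37 in DIO, against 8.79 and 8.43 in control, a difference of 0.69 ± 0.18. Ugp2, which makes the UDP-glucose used for glycogen, was at 11.32 and 11.49 in DIO, against 12.09 and 11.83 in control, a difference of −0.56 ± 0.16. Dld, a subunit of pyruvate dehydrogenase, differed by 0.33 ± 0.15 and Pgd, of the pentose phosphate pathway, by −0.25 ± 0.14. The adjusted p of these 8 genes in limma lay between 0.728 and 0.759.

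Leaving out 1 array at a time showed which statements rested on it. Without DIO 2 the median of the hypoxia targets was −0.03, with 7 of 14 lower, and without DIO 1 it was −0.66, with 12 of 14 lower. Without control 2 it was −0.33 and without control 1 −0.29, with 11 of 14 lower in each case. The median of the enzymes turned to 0.11 without DIO 2 and to 0.15 without control 1, and was −0.22 without DIO 1. With 1 array left in a group, its spread was taken to be that of the other group. Without control 1, Pfkfb4 and Car12 passed the threshold (limma, adjusted p = 0.038 and 0.0498), both lower in DIO, where 2.65% of all genes passed and 2.47% passed as lower. The sign of the difference held in all 4 of these comparisons for 17 of 36 members, against 50.6% of all genes, and by list for 2 of 13 enzymes, 4 of 7 transporters and regulators, 9 of 14 hypoxia targets and both factors.

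**Figure D5:**
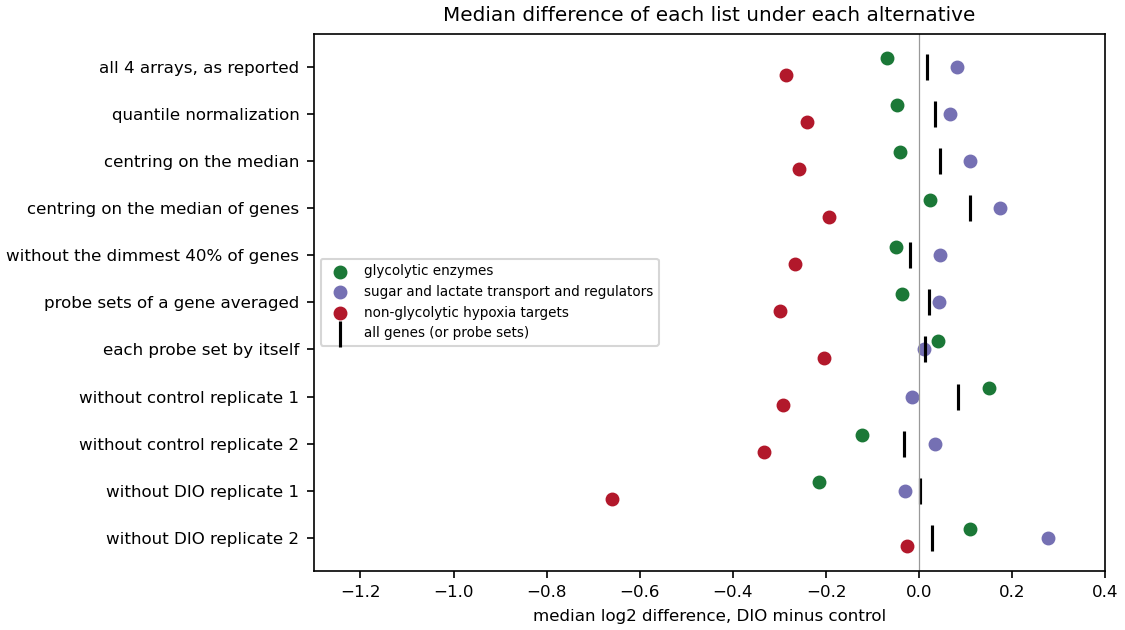
Median log2 difference, DIO minus control, of 3 member lists and of all genes (or probe sets) with all arrays and under 10 alternatives. The hypoxia targets lie below 0 in each row shown, between −0.66 and −0.03, while the enzymes fall on both sides of 0.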

How the data were processed

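Total RNA was converted to biotinylated cRNA for Affymetrix arrays, per the labels' protocols. The authors deposited 1 log2 expression level per probe set and array; that the scale is log2 was read from the values, 2.59 to 14.56, and how background, normalization and probe summary were handled is not stated in any source used here. Gene names came from the platform annotation: 34945 of 45101 probe sets had 1 gene symbol, 932 several and 9160 were not listed, with 64 control probe sets left out. Each gene was represented by its probe set with the highest mean, with no filter. Differences were fitted with limma 3.58.1 (R 4.3.3; lmFit and eBayes, 2-sided, Benjamini-Hochberg adjustment over 18193 genes), tested on simulated data. Precision is limited by having 2 arrays in each group. Array values are given for members with non-overlapping groups and for Hif1a, Epas1, Slc2a1, Ldha, Pdk1, Bnip3, Egln3, Car9 and Adm, and of each further list for up to 4 non-overlapping genes with the smallest p and a brighter group mean above 7.09, the median of gene means. The members and lists were chosen with earlier results of these data known. Alternatives were quantile normalization, centring, a filter on the dimmest 40% of genes, averaged or single probe sets, a trended and robust eBayes, a replicate block and leaving out each array.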

Additional observations from a re-analysis of the deposited data

How the results depend on the processing

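The hypoxia targets kept a negative median under every alternative run, from −0.66 to −0.0262 when 1 array was left out. The enzymes' median turned to 0.0223 after centring on the median of genes (chosen after the data were seen, which moved the median of all genes to 0.11), to 0.0409 over single probe sets, and ran from −0.22 to 0.15 when 1 array was left out, and that of the transporters and regulators from −0.0304 to 0.28. The gap between the hypoxia targets and the enzymes ran from −0.44 to −0.14 when 1 array was left out. The count of members with non-overlapping groups was 30 probe sets of 80 when each was taken alone, 19 below the controls and 11 above. Over all 45037 probe sets, 8568 lay below and 10028 above. When 1 array was left out, the count was 20 to 27 of 36 members, where fewer arrays make overlap rarer. In those fits 4617 to 7688 of all 18193 genes lay below the controls and 5959 to 9119 above. Genes past the threshold numbered 0 to 483 over all genes, 0 to 2 among the members and 0 to 1 among the further genes (Rora) when 1 array was left out, all of the calls without control 1, and 0 under every other alternative. Same-numbered mice are not stated to be paired. Their deviations correlated at 0.333 over genes, and a fit with the replicate block left the calls at 0, the hypoxia targets' median at −0.29 and the genes with an unadjusted p below 0.05 at 982, against 1198 without it.

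Signs of single members also turned; the cause was not tested. Under quantile normalization Aldoa was at −0.0104 and Slc2a1 at −0.0208. After centring on the median of genes Pfkp was at 0.0223 and Pgk1 at 0.062. With probe sets averaged Higd1a was at −0.0254, Pgk1 at 0.092 and Slc2a1 at −0.0338. Other probe sets gave −0.0016 and −0.11 for Slc2a1, −0.0229 and −0.0174 for Aldoa, 0.17 and 0.14 for Pgk1, −0.0001 for Slc2a3, −0.0119 for Pdk1, 0.14 for Pfkl, −0.0318 and −0.15 for Higd1a, 0.0426 for Pfkp, and 0.14 and 0.15 for Car12. When 1 array was left out, the members whose sign turned ran over these ranges: Adm −0.31 to 0.31, Aldoa −0.11 to 0.19, Ankrd37 −0.78 to 0.24, Bnip3 −0.69 to 0.28, Ddit4 −0.32 to 0.13, Hk1 −0.37 to 0.11, Hk2 −0.80 to 0.0108, Kdm3a −0.64 to 0.0292, Ldha −0.34 to 0.15, Ldhb −0.0856 to 0.59, Pfkfb3 −0.11 to 0.28, Pfkl −0.37 to 0.0304, Pfkm −0.12 to 0.65, Pfkp −0.47 to 0.33, Pgam1 −0.0452 to 0.33, Pgk1 −0.21 to 0.15, Slc16a3 −0.30 to 0.50, Slc2a1 −0.0751 to 0.0936, Tpi1 −0.0844 to 0.42.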

Other observations

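Vhl, Elob, Eloc and Cul2, subunits of the ubiquitin ligase that recognises the hydroxylated factors, had differences between −0.17 and 0.14, and none passed the test. Eloc was higher on each DIO array than on either control. Egln2 and Hif1an, further hydroxylases that act on the factors, differed by −0.08 and −0.09, with both DIO arrays below both controls for Hif1an. Both DIO arrays lay on one side of both controls for 38.4% of all genes. Arnt, the partner with which the factors bind DNA, differed by −0.02 ± 0.15. The 95% intervals were as wide as −0.75 to 0.41 for Cul2 and −0.68 to 0.38 for Vhl. These genes were named by role after their values were seen.

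Pdha1, Pdhb, Dlat, Dld, Mpc1, Pdp1, Pdk2, Pdk3 and Pdk4, which act on pyruvate at the mitochondrion, differed by −0.32 to 0.33, and none passed the test. Dlat and Dld were higher, and Pdp1 lower, on each DIO array than on either control. Such separation of the groups, in either direction, was seen for 38.4% of all genes. Plod2, a lysyl hydroxylase that works on collagen beside the P4ha enzymes, was at 8.98 and 8.30 in DIO, against 8.42 and 9.91 in control. Its highest array was control 2, where the epidermal markers were also highest. The related gene Plod1 differed by −0.03 and was highest in DIO 1. Plod2 was singled out after its values were seen, and the part of the epidermal markers in them was not tested.

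Pkm, the last enzyme of glycolysis, is no member and was at 11.30 and 10.88 in DIO, against 11.48 and 11.31 in control, a difference of −0.30 ± 0.20 in limma (adjusted p = 0.775). Vegfa, the hypoxia-induced growth factor of endothelial cells, was higher on both DIO arrays than on either control, with a difference of 0.28 ± 0.17 (limma, adjusted p = 0.764). Both were singled out after their values were seen.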
